A study of Mus musculus with 18 samples.

Results

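The genes described here form the core programme of blood vessel endothelium: 32 mouse genes whose transcripts mark the cells that line blood vessels. They were chosen by their measured levels in this series, as genes high in Tomato-positive (Tom+) muscle cells and in Tom+/Pecam1+ tumor cells against the other sorted cells. Each was read from a probe set that carries its symbol alone and, where there were several, from the one brightest on average across the 18 arrays. Probe sets of this kind were found for 31 of the 32 genes, out of 22180 genes on the array. All 31 were bright enough to be tested among 16011 genes. Rasip1, a partner of the small GTPase Rap1 in vessel lumen formation, has no probe set with a single symbol and has no values.

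The series compared cell populations sorted by flow cytometry from mouse muscle and from tumors of mice with an activated hedgehog receptor component. All mice carried aP2-Cre, in which the Fabp4 (aP2) promoter drives Cre recombinase, and a tdTomato reporter that marks cells in which Cre has been active. The question addressed by the series is the cell of origin of fusion-negative rhabdomyosarcoma driven by sonic hedgehog signalling. RNA was amplified and hybridised to microarrays.

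Normal muscle was the sternocleidomastoid at postnatal day 21, from B6;SJL mice of genotype aP2-Cre/+;tdTomato/+ (written aP2-Cre/+;tdTomato for Tom+ repeat 1), and was sorted into Tom+ and Tom- cells with 3 biological repeats each. Tumors came from BJ;SJL;B6.129 mice of genotype aP2-Cre/+;tdTomato/+;SmoM2/+, where SmoM2 is a constitutively active form of Smoothened. They were sorted into Tom-/Pecam1-, Tom+/Pecam1- and Tom+/Pecam1+ cells with 4 biological repeats each. Repeats 1 to 3 of each tumor population were taken at postnatal day 48 and repeat 4 at day 38. Muscle cells were not sorted on Pecam1, so the muscle Tom+ group can hold any cell type in which aP2-Cre was active. Tumor and muscle differ in tissue, age, strain and SmoM2 genotype together, and the contributions of these cannot be told apart. In sorted bulk samples, fewer cells of a type and less RNA per cell also cannot be told apart.

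Endothelial cells form a continuous sheet held together by tight and adherens junctions, and they sense blood flow and blood-borne lipids through a set of surface receptors. Junction proteins such as claudin 5 and the JAM and ESAM immunoglobulin proteins control what crosses the vessel wall, while receptors for sphingosine 1-phosphate, adrenomedullin and BMP ligands keep the sheet quiescent and guide its growth. Much of this programme is driven by transcription factors of the ETS family, whose binding sites share the core letters GGAA.

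The promoters of 5 of the genes are shown because they differ in matches to CCGGAA and AGGAAG, longer forms of this core. They belong to genes that kept, gained or lost level between muscle and tumor. They were picked after the values had been seen. Each is the 250 bases before the annotated start of the gene, from RefSeq on build GRCm38.p6, printed 5′ to 3′ on the gene's own strand, with capitals marking CCGGAA or AGGAAG on either strand. The windows are chr3:137340828-137341077 on the plus strand for Emcn, chr2:32646345-32646594 on the plus strand for Eng, chr2:84425267-84425516 on the minus strand for Calcrl, chr8:71395802-71396051 on the minus strand for Ushbp1 and chr14:98169766-98170015 on the minus strand for Dach1.
Emcn: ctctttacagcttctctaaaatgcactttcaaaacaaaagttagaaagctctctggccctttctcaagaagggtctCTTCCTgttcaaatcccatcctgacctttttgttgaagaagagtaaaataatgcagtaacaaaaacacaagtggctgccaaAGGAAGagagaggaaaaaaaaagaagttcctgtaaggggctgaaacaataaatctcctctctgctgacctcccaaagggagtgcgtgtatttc
Eng: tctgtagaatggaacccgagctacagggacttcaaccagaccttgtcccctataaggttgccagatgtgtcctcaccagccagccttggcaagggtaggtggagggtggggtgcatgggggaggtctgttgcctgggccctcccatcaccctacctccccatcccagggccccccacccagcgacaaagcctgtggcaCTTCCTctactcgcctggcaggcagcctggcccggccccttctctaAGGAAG
Calcrl: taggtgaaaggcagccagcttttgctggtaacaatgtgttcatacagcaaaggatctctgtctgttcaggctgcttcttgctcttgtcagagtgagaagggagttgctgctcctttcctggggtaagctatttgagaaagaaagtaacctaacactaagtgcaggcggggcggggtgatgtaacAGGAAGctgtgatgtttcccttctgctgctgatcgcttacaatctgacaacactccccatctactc
Ushbp1: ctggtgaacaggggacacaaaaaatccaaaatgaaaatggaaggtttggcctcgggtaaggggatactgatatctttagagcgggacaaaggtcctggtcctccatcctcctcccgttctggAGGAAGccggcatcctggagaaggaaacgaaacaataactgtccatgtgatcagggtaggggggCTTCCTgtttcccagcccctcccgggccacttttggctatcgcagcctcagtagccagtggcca
Dach1: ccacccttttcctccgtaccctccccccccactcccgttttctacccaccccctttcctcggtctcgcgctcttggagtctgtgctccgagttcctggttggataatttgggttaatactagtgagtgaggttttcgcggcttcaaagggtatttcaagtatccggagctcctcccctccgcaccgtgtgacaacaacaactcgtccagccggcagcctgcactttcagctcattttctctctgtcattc
Emcn, Eng and Ushbp1 each hold 2 of these matches, Calcrl holds 1, and neither CCGGAA nor AGGAAG is in the Dach1 window. The bare core GGAA, or TTCC on the other strand, also occurs in lower case, in the Dach1 window too, and was not counted. RefSeq promoter entries were matched for 18 of the 32 genes, Rasip1 among them, giving 20 windows. AGGAAG was present in 11 of the 20 windows (55%), against 29.5% of all 32851 windows of the same length. The other ETS form, CCGGAA, was present in 2 (10%, against 12% of all windows). CCACCC, letters bound by KLF factors, was present in 8 (40%, against 28.1%). ACAAAG, bound by SOX factors, was present in 3 (15%, against 16.5%). TGTTTA of forkhead factors, AGATAA of GATA factors and the TATAAA box were each present in 1 window (5%), against 12%, 9.99% and 12.4% of all windows. Both strands were searched for each motif, and these shares describe letters in a window rather than bound sites.

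All levels below are log2 RMA intensities with the median of the array subtracted, so that 0 is the middle of all probe sets on that array and a difference of 1 is a 2-fold difference. The subtraction matters because the array medians were 5.041 to 5.105 in the muscle arrays and 5.41 to 5.438 in the tumor arrays. The deposited tumor values carry a further adjustment: the mean of the 3 populations of a tumor repeat was the same for all 4 repeats, within 7.67e-05 at every probe set, whereas the corresponding muscle means differed by a median of 0.248. Spread among tumor repeats is therefore understated, p-values that involve tumor groups tend to be too small, and a deviation in 1 tumor array is mirrored in the other arrays of its repeat. Among the Tom+/Pecam1+ arrays, repeat 4 (day 38) stood apart from the other 3 by Dixon's test in 7 of the 31 genes (22.6%), against 3.05% of all genes. Its leukocyte markers averaged 1.38 against 0.06 to 0.25 in repeats 1 to 3, and its macrophage markers 1.31 against 0.14 to 0.27. Muscle repeats 1 and 2 of the Tom+ group held salivary gland markers at a mean of 1.57 and 1.02, against -0.64 in repeat 3. In the muscle Tom- arrays these markers averaged 2.89 and 0.87 in repeats 1 and 2, against -0.58 in repeat 3. Where a call given below for 1 of the 31 genes was lost without these libraries, the value without them is given too.

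**Figure D1:**
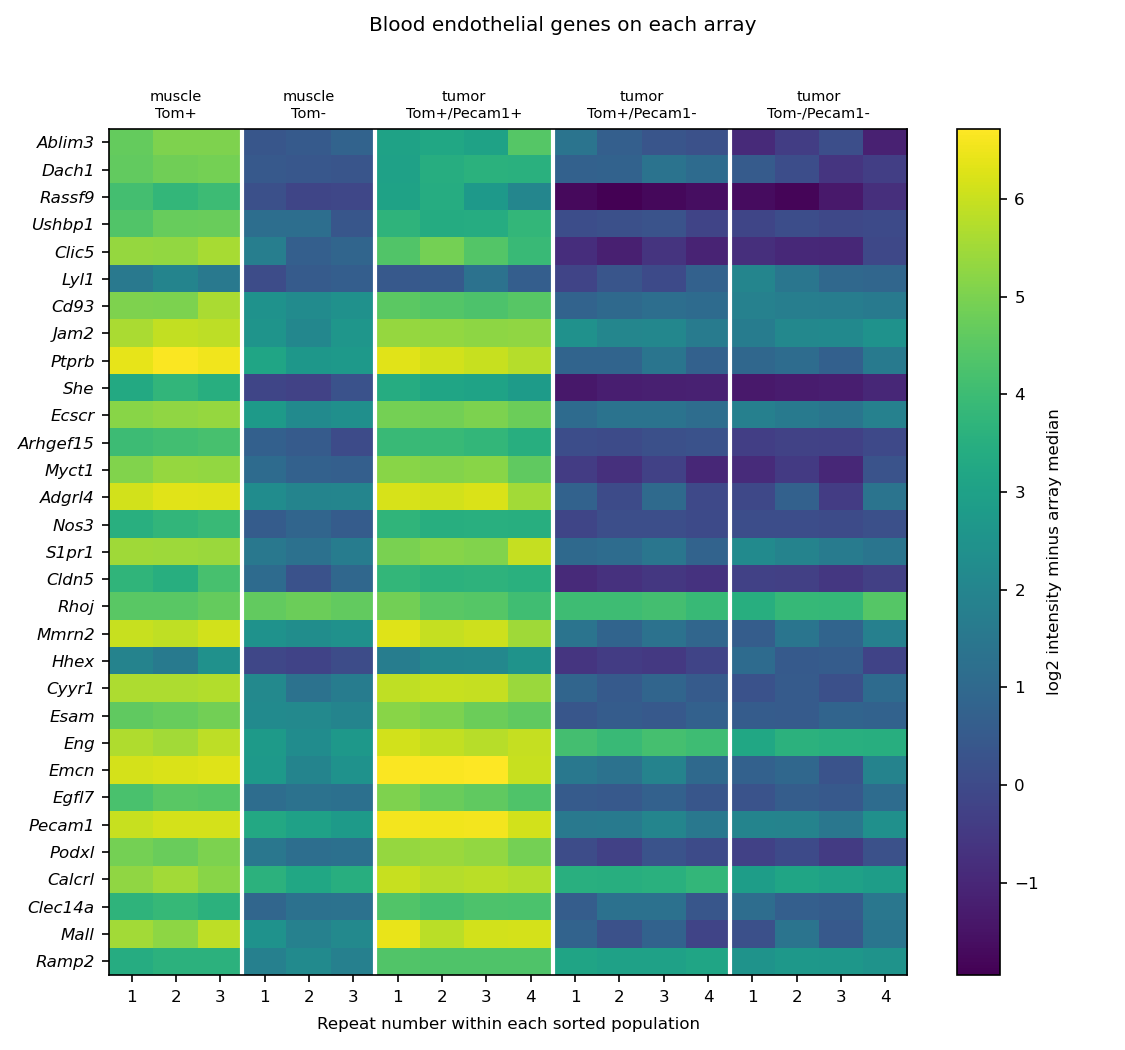
Level of each of the 31 measured genes (rows) in each of the 18 arrays (columns, by sorted group), as log2 intensity minus the array median. The muscle Tom+ and tumor Tom+/Pecam1+ columns are high for nearly all genes, while Rhoj is high in all 5 groups.

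The endothelial programme was high as a block in muscle Tom+ and tumor Tom+/Pecam1+ cells. This is how the genes were chosen, so it is described without a test. Averaged over the 31 genes, the level was 4.70, 4.79 and 4.90 in the 3 muscle Tom+ arrays and 4.68, 4.61, 4.60 and 4.45 in the 4 tumor Tom+/Pecam1+ arrays. The muscle Tom- arrays averaged 1.73, 1.5 and 1.59. The Tom+/Pecam1- tumor arrays averaged 0.83, 0.76, 0.98 and 0.71, and the Tom-/Pecam1- arrays 0.76, 0.89, 0.67 and 1.08. The 7 arrays of the endothelial populations thus lay far above the other 11, and the muscle Tom- arrays, which were not depleted of Pecam1+ cells, lay above every Pecam1- tumor array.

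In muscle, 30 of the 31 genes were higher in every Tom+ array than in every Tom- array (23.7% of all genes tested were) and none was lower in every array (24.3% of all genes). The differences among these 30 ran from 1.26 for Lyl1 to 4.42 for Myct1, a 21.4-fold difference. In the tumor, 29 genes were higher in every Tom+/Pecam1+ array than in every Tom+/Pecam1- array (19.5% of all genes), from 1.27 for Ramp2 to 5.73 for Mall, a 53.0-fold difference. Against Tom-/Pecam1- tumor cells, 29 genes were likewise separate (18.1% of all genes), from 1.60 for Hhex to 5.60 for Adgrl4, a 48.5-fold difference.

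The exceptions were Rhoj and Lyl1. Rhoj, a small GTPase of endothelial cell movement, lay at 4.51, 4.50 and 4.67 in muscle Tom+ cells and at 4.65, 4.77 and 4.63 in muscle Tom- cells. In the tumor it lay at 4.88, 4.50, 4.43 and 4.05 in Tom+/Pecam1+ cells, at 4.03, 4.05, 4.13 and 3.89 in Tom+/Pecam1- cells and at 3.50, 3.86, 3.83 and 4.45 in Tom-/Pecam1- cells. In each tissue its range in the endothelial population overlapped that of the other populations, and its level was above 3 in all 18 arrays. Lyl1, a basic helix-loop-helix factor shared by blood and vessel cells, lay at 0.49, 0.53, 1.32 and 0.64 in Tom+/Pecam1+ tumor cells and at 2.00, 1.47, 0.97 and 0.93 in Tom-/Pecam1- tumor cells. Its mean was thus lower in the tumor endothelial population than in the unmarked cells, a difference of -0.60 with overlapping arrays.

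**Figure D2:**
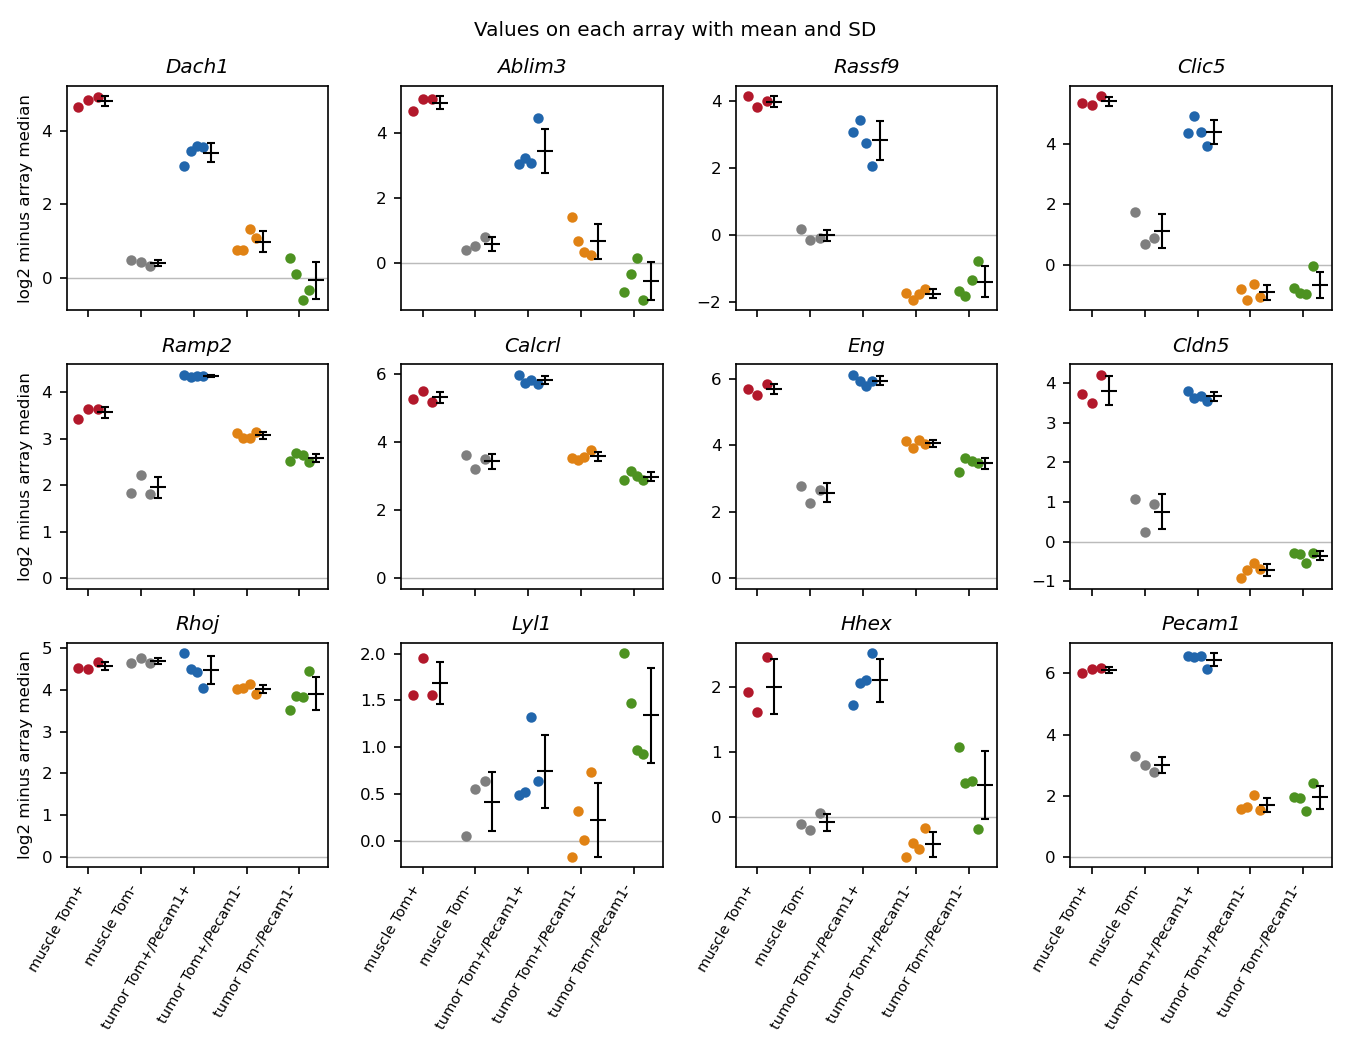
Level in every array (log2 intensity minus array median, vertical axis) for 12 of the genes, by sorted group on the horizontal axis. Each point is 1 array, each horizontal bar is the group mean and each error bar is 1 SD. Eng and Cldn5 overlap between muscle Tom+ and tumor Tom+/Pecam1+ cells, while Dach1, Rassf9 and Clic5 are lower in every tumor Tom+/Pecam1+ array than in every muscle Tom+ array.

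Whether these genes keep their level in tumor vessels was asked by comparing tumor Tom+/Pecam1+ with muscle Tom+ cells. Both populations were high by choice, so the difference between them was tested over all 16011 genes with limma and Benjamini-Hochberg adjustment. Of the 31 genes, 12 passed an adjusted p of 0.05 (38.7%), 2 of them higher in the tumor and 10 lower. Of all genes tested, 34.2% passed, 15.7% higher and 18.5% lower, so the share of endothelial genes called was near that of the array as a whole. The median difference of the 31 genes was -0.15, against -0.03 for all genes. For 22 genes (71.0%) the 95% interval of the difference lay inside a 2-fold change in either direction, which was true of 84.3% of all genes. Of these 22, 17 were also not called. In 5 genes (16.1%, against 4.6% of all genes) the call came with an estimated difference of more than 2-fold, all 5 of them lower in the tumor. On deposited values without centring 3 genes were called and past 2-fold, with Ablim3 and Dach1 lower and Ramp2 higher, and with quantile normalization 3, with Ablim3, Dach1 and Rassf9 lower. The arrays of the 2 populations did not overlap for 3 genes higher in the tumor (17.3% of all genes) and 11 lower (19.9% of all genes).

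The split between higher and lower depended on how arrays were brought to a common level. With deposited values and no centring, where the median of all genes itself shifted by 0.33, 9 of the genes were higher and 6 lower. With quantile normalization, 5 were higher and 7 lower: Eng, Podxl and Clec14a gained a call, and Ecscr, She and Jam2 lost theirs. The balance of higher and lower calls is therefore read relative to the array median only.

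**Figure D3:**
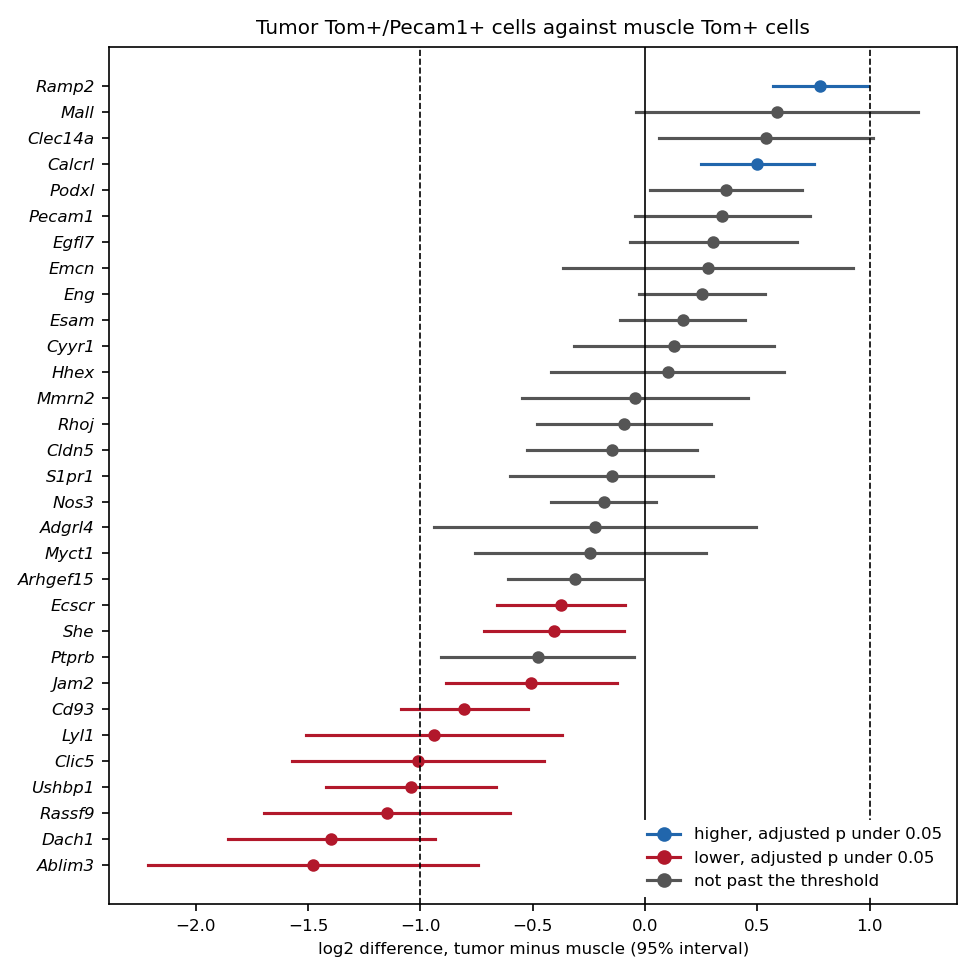
Difference between tumor Tom+/Pecam1+ and muscle Tom+ cells for each of the 31 genes (log2, tumor minus muscle), with its 95% interval from limma, ordered by size. The dashed lines mark a 2-fold difference. Ablim3, Dach1, Rassf9, Ushbp1 and Clic5 lie past the lower line and Ramp2 is the highest.

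The junction genes are given first. Pecam1, the adhesion molecule on which the tumor cells were sorted, lay at 6.01, 6.15 and 6.17 in the muscle Tom+ arrays and at 6.57, 6.53, 6.57 and 6.14 in the tumor Tom+/Pecam1+ arrays. Only repeat 4 of the tumor fell within the muscle range, and the difference was 0.34 (SE 0.18, limma adjusted p = 0.1637). Without tumor repeat 4 the difference was 0.45 and passed the test (adjusted p = 0.03477). Pecam1 was the gate in the tumor sort, and the muscle sort had no such gate.

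Esam, an immunoglobulin-type adhesion molecule of endothelial tight junctions, lay at 4.61, 4.69 and 4.86 in muscle and at 5.17, 5.0, 4.78 and 4.60 in the tumor. The arrays overlapped, and the difference was 0.17 with a 95% interval of -0.11 to 0.44 (adjusted p = 0.3466). Cldn5, the main claudin of endothelial tight junctions, lay at 3.73, 3.49 and 4.21 in muscle and at 3.80, 3.63, 3.66 and 3.55 in the tumor. All 4 tumor values lay inside the muscle range, and the interval of the difference was -0.53 to 0.23 (adjusted p = 0.5541). Against muscle repeat 3 alone the difference was -0.55 and passed the test (adjusted p = 0.02843), with that lone array assumed to vary like the other groups. Ptprb, the receptor phosphatase that restrains VE-cadherin and Tie2 signalling, differed by -0.48 (adjusted p = 0.07968), with no overlap between the arrays. Jam2, another junctional immunoglobulin protein, fell by 0.51 (adjusted p = 0.03832), but the call was lost under 11 of the 19 alternatives. Among these is the stricter threshold of 0.01, which that adjusted p could not pass. With the replicate block the adjusted p was 0.08202, without any 1 of the tumor Tom+/Pecam1+ arrays 0.05798 to 0.0765, without muscle Tom+ repeat 2 or 3 0.1233 and 0.09958, and against muscle repeat 3 alone 0.1752.

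The sialomucins and Mall had means above the muscle level, but none of them was called. Podxl, a sialomucin of the luminal surface, differed by 0.36 (adjusted p = 0.09157). Emcn, whose promoter is shown above, differed by 0.28 with an interval of -0.36 to 0.93 (adjusted p = 0.5089). Without tumor repeat 4, Podxl passed the test at 0.48 (adjusted p = 0.01722), while Emcn at 0.46 did not (adjusted p = 0.08293). Mall, a membrane-trafficking protein of the MAL family, differed by 0.59 (adjusted p = 0.1375). Its interval of -0.04 to 1.22 reached past 2-fold, so for Mall neither a call nor a kept level can be given.

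Eng, or endoglin, the co-receptor for BMP9 and TGF-beta family ligands, lay at 5.70, 5.53 and 5.84 in muscle and at 6.13, 5.94, 5.78 and 5.94 in the tumor. The arrays overlapped, and the difference of 0.25 had an interval of -0.03 to 0.54 (adjusted p = 0.1541). Eng passed the test with quantile normalization at 0.40 (adjusted p = 0.01587) and on deposited values at 0.61 (adjusted p = 0.0008867). Of 12 partners of endoglin in BMP9 signalling, 4 rose and none fell. This count and those of the lists below stand beside 15.7% higher and 18.5% lower among all genes. The median of the 12 was 0.03, against -0.03 for all genes. Smad6, an inhibitory Smad, rose by 1.39 (adjusted p = 2.726e-06), Tgfbr2, a TGF-beta receptor, by 1.13 (adjusted p = 7.041e-06), and Bmpr2, a BMP receptor, by 0.29 (adjusted p = 0.04165).

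The receptor for adrenomedullin, a vasodilator peptide, is assembled from Calcrl and its chaperone Ramp2, and these were the 2 genes of the programme called higher in the tumor. Ramp2 lay at 3.43, 3.64 and 3.64 in muscle and at 4.38, 4.32, 4.35 and 4.34 in the tumor. Calcrl lay at 5.27, 5.51 and 5.19 in muscle and at 5.99, 5.76, 5.83 and 5.72 in the tumor. For both genes every tumor array was above every muscle array. Ramp2 rose by 0.78 (SE 0.10, 1.72-fold, adjusted p = 1.936e-05) and Calcrl by 0.50 (SE 0.12, 1.41-fold, adjusted p = 0.003953), and both intervals stayed inside 2-fold. Both calls were kept under each of the 19 alternative analyses of this comparison. Of 7 partners on the array 6 were bright enough to be tested: the sister chaperones Ramp3 and Ramp1 rose by 0.85 (adjusted p = 0.01799) and 0.37 (adjusted p = 0.04575), and the ligand gene Adm fell by 0.76 (adjusted p = 0.001942). The median of the 6 was -0.08.

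S1pr1, the receptor through which sphingosine 1-phosphate stabilises endothelial junctions, differed by -0.15 (adjusted p = 0.6252) with an interval of -0.60 to 0.30. This mean hides a split: tumor repeats 1 to 3 lay at 4.99, 5.15 and 5.09, below the muscle values of 5.48, 5.44 and 5.41, and repeat 4 lay at 5.95, above them. Without repeat 4 the difference was -0.37 (adjusted p = 0.06141). Of 10 partners in the pathway, 1 rose and 3 fell, with a median of -0.25. The 3 that fell were the receptor genes S1pr3, by 1.72 (adjusted p = 0.001518), and S1pr2, by 0.78 (adjusted p = 0.0003071), and the carrier gene Apom, by 0.53 (adjusted p = 0.0005708).

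Cd93 and Clec14a encode related C-type lectin-like receptors of endothelial cells that bind the matrix protein multimerin 2, the product of Mmrn2. The 3 genes did not move alike. Cd93 lay at 5.05, 5.02 and 5.62 in muscle and at 4.54, 4.39, 4.29 and 4.48 in the tumor, with no overlap. It fell by 0.80 (SE 0.13, adjusted p = 0.0002256), and the call was kept under all 19 alternatives. Clec14a differed the other way by 0.54, with every tumor array above every muscle array, but missed the threshold (adjusted p = 0.07565). Without tumor repeat 4 it passed at 0.54 (adjusted p = 0.03493). Mmrn2 lay at 5.98, 5.90 and 6.14 in muscle and at 6.29, 5.98, 6.08 and 5.50 in the tumor, and its difference of -0.05 had an interval of -0.55 to 0.46 (adjusted p = 0.9034). Among 7 further genes listed as ligands, sheddases or relatives of these receptors, 2 rose and 1 fell. One that rose, Mmrn1, is also on the list of lymphatic markers counted below. Rhbdl2, a protease that sheds CLEC14A, rose by 2.31 (adjusted p = 1.521e-05), Mmrn1 rose by 1.28 (adjusted p = 6.517e-05) and Dag1, or dystroglycan, a ligand of CD93, fell by 0.43 (adjusted p = 0.0243).

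Among the other surface and secreted products, Adgrl4, an adhesion G protein-coupled receptor of vessel sprouts, differed by -0.22 (adjusted p = 0.6474). Egfl7, a secreted protein of the vessel matrix, differed by 0.30 (adjusted p = 0.1956), and without tumor repeat 4 it passed the test at 0.42 (adjusted p = 0.02209). Myct1 differed by -0.24 (adjusted p = 0.4706) and Cyyr1 by 0.13 (adjusted p = 0.673). Intervals of these 4 genes lay inside 2-fold. Ecscr, a small endothelial membrane protein, fell by 0.37 and was the called gene nearest to the threshold on its inner side together with She (adjusted p = 0.04163 and 0.04299). Clec14a and Ptprb were the nearest on the outer side. Ecscr and She each lost the call under 12 of the 19 alternatives. Among these is the stricter threshold of 0.01, which neither adjusted p could pass. On deposited values the differences were -0.02 and -0.05 (adjusted p = 0.9133 and 0.7843), and with quantile normalization the adjusted p was 0.1301 and 0.06843. The calls were also lost without tumor repeat 4 (adjusted p = 0.08666 and 0.1093) and with the replicate block (0.08875 and 0.08999). Against muscle repeat 3 alone the differences were -0.44 and -0.37. Leaving out any 1 muscle Tom+ array also ended the call of Ecscr (0.0562 to 0.1225).

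Of the intracellular proteins, Nos3 is the endothelial nitric oxide synthase. It lay at 3.53, 3.75 and 3.94 in muscle and at 3.74, 3.47, 3.51 and 3.51 in the tumor. The ranges overlapped, and the difference was -0.18 with an interval of -0.42 to 0.05 (adjusted p = 0.2145). Of 10 partners, 1 rose and 5 fell, with a median of -0.44. Nostrin, which traffics NOS3 away from the membrane, rose by 2.34 (adjusted p = 2.744e-06). Cav1, the caveolin that holds NOS3 inactive, fell by 0.85 (adjusted p = 9.94e-05), and Gucy1b1, a subunit of the nitric oxide receptor guanylyl cyclase, fell by 1.29 (adjusted p = 0.001547). Pericyte markers were lower in the same comparison, as given below, and their part in this list was not tested.

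Of genes that act with small GTPases, Rhoj differed by -0.09 with an interval of -0.48 to 0.29 (adjusted p = 0.7259). Arhgef15, a guanine nucleotide exchange factor, was lower in every tumor array than in every muscle array, but its difference of -0.31 missed the threshold (adjusted p = 0.09851). Centred on other blood endothelial genes it passed at -0.39 (adjusted p = 0.04947). She, an SH2 domain adaptor, fell by 0.41 (adjusted p = 0.04299), although tumor repeat 1, at 3.42, lay within the muscle range.

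The 5 genes that lost more than 2-fold are a mixed group of intracellular proteins. Ablim3, an actin-binding LIM protein, lay at 4.68, 5.05 and 5.03 in muscle and at 3.04, 3.23, 3.06 and 4.45 in the tumor. Tumor repeat 4 stood above the other 3 but still below every muscle array. Ablim3 fell by 1.48 (SE 0.35, 2.79-fold, adjusted p = 0.003704), and without tumor repeat 4 by 1.81 (adjusted p = 0.0001112). Against muscle repeat 3 alone the fall of 1.59 did not pass (adjusted p = 0.07903).

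Dach1, a transcriptional regulator that in arteries takes part in endothelial migration against flow, lay at 4.65, 4.83 and 4.92 in muscle and at 3.03, 3.44, 3.58 and 3.57 in the tumor. Every tumor array was more than 1 unit below every muscle array, and Dach1 fell by 1.40 (SE 0.22, 2.63-fold, adjusted p = 0.0001299). Ushbp1 lay at 4.36, 4.72 and 4.75 in muscle and at 3.68, 3.38, 3.41 and 3.80 in the tumor, and fell by 1.04 (SE 0.18, 2.06-fold, adjusted p = 0.000301). Clic5, a chloride intracellular channel family protein that binds the ezrin cytoskeleton, lay at 5.35, 5.31 and 5.59 in muscle and at 4.38, 4.92, 4.40 and 3.93 in the tumor. It fell by 1.01 (SE 0.27, 2.01-fold, adjusted p = 0.007538). For these 3 genes the ranges did not overlap, and the calls were kept under all 19 alternatives.

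Rassf9, a Ras-association domain protein, lay at 4.12, 3.80 and 3.98 in muscle and at 3.06, 3.42, 2.74 and 2.05 in the tumor. It fell by 1.15 (SE 0.26, 2.22-fold, adjusted p = 0.002631), but against muscle repeat 3 alone the fall of 1.17 did not pass (adjusted p = 0.08067).

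Of the transcription factors besides Dach1, Lyl1 fell and Hhex did not differ beyond its spread. Lyl1 lay at 1.55, 1.95 and 1.55 in muscle and at 0.49, 0.53, 1.32 and 0.64 in the tumor, and fell by 0.94 (SE 0.27, 1.92-fold, adjusted p = 0.01285). The call was lost on deposited values without centring (-0.59, adjusted p = 0.08047), without muscle Tom+ repeat 2 (-0.81, adjusted p = 0.06149) and against muscle repeat 3 alone (-0.81, adjusted p = 0.2158). Hhex, a homeobox factor of early endothelial and blood cells, differed by 0.10 with an interval of -0.42 to 0.62 (adjusted p = 0.7843).

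Of 23 other blood endothelial genes outside the programme, 5 rose and 5 fell in the tumor, with a median of -0.14 against -0.03 for all genes. The 3 with the smallest adjusted p all rose. Plvap, which forms the diaphragms of fenestrated vessels, rose by 2.20 (adjusted p = 8.825e-07), Vwf, the von Willebrand factor, by 1.12 (adjusted p = 1.74e-05) and Exoc3l2, an exocyst-related protein of VEGF receptor trafficking, by 1.43 (adjusted p = 4.049e-05). Among 15 partners of junctions and Rap1, none rose and 3 fell, with a median of -0.23. These were Tjp1, or ZO-1, which fell by 0.73 (adjusted p = 0.001469), Afdn, or afadin, by 0.43 (adjusted p = 0.01476) and Rap1b by 0.31 (adjusted p = 0.02647).

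Markers of other cell types moved between the same 2 populations. Of the lymphatic endothelial markers, 5 of 6 were higher in the tumor, and their summed level was 3.65 to 3.72 in muscle Tom+ and 4.16 to 4.89 in tumor Tom+/Pecam1+ arrays. Pericyte and smooth muscle markers were lower in 5 of 10 genes, with summed levels of 6.59 to 7.74 and 6.24 to 6.48. Fibroblast markers were higher in 5 of 10 (3.81 to 4.63 and 4.61 to 5.42), salivary gland markers lower in 5 of 8 (3.10 to 6.77 and 2.77 to 2.85), and no myogenic marker of 10 was called. Leukocyte markers were higher in 1 of 8 and macrophage markers lower in 2 of 8. Of platelet markers 1 of 6 was higher and 3 lower, of adipocyte markers 1 of 6 was higher and 1 lower, of Schwann cell markers 2 of 5 were lower, and of proliferation markers 2 of 7 were higher. In muscle Tom+ cells 9 of 10 fibroblast, 7 of 10 myogenic, 10 of 10 pericyte, 6 of 8 leukocyte and 8 of 8 macrophage markers were above the 40th percentile in every array. In tumor Tom+/Pecam1+ cells 9 of 10, 7 of 10, 10 of 10, 4 of 8 and 6 of 8 were. Of all genes tested, 84.7% were above it in every muscle Tom+ array and 83.7% in every tumor Tom+/Pecam1+ array. The counts alone therefore do not show that a cell type was present. Of 7 adipocyte markers on the array, 4 were above it in every muscle Tom+ array and 3 in every tumor Tom+/Pecam1+ array. Of 7 platelet markers, 5 and 2 were. The markers of these 7 lists above it in no muscle Tom+ array were Lum (fibroblast), Chrna1 and Myh3 (myogenic), Lep, Cidec and Retn (adipocyte) and Tubb1 (platelet). Those above it in no tumor Tom+/Pecam1+ array were Lep (adipocyte) and Pf4, Ppbp, Gp9, Gp6 and Tubb1 (platelet). The part of these cells in the differences of the endothelial genes was not tested.

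**Figure D4:**
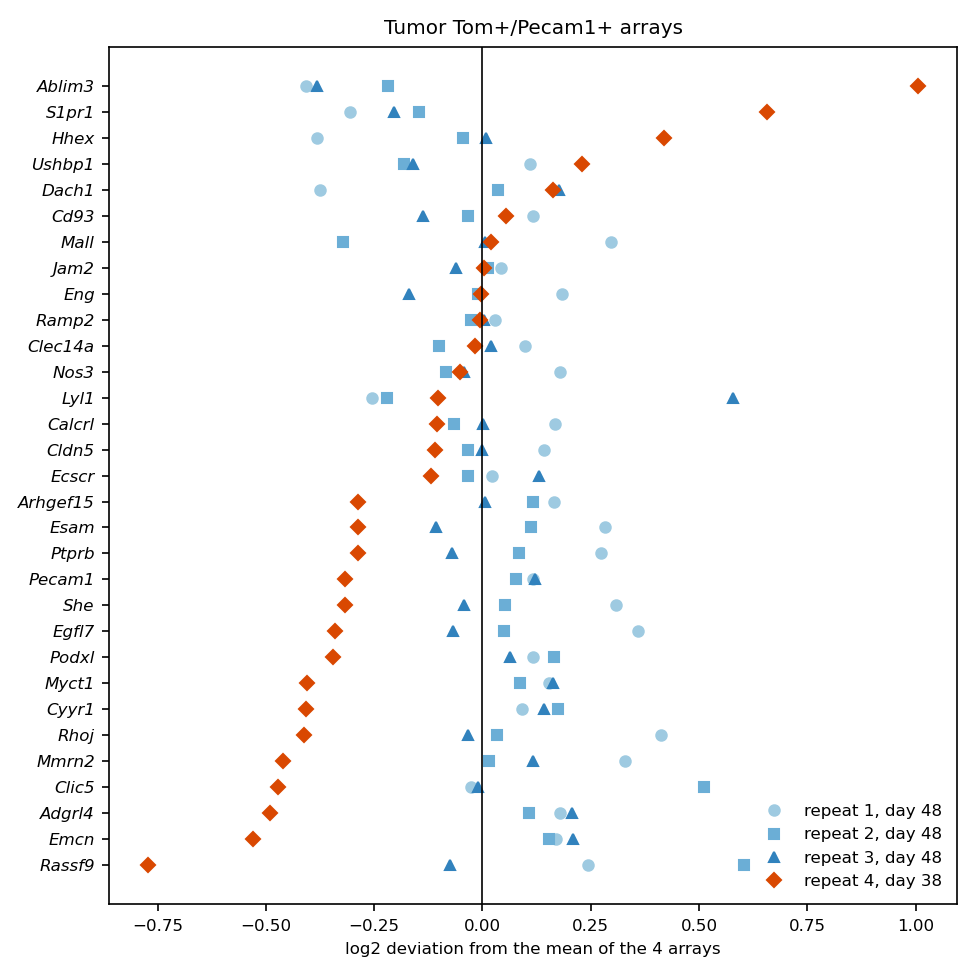
Deviation of each tumor Tom+/Pecam1+ array from the mean of the 4 arrays (log2, horizontal axis) for each of the 31 genes (vertical axis), with repeat 4 (day 38) drawn apart from repeats 1 to 3 (day 48). Repeat 4 is the lowest array for 18 genes and the highest for 4, with S1pr1 and Ablim3 on the high side.

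Among themselves the tumor endothelial arrays varied gene by gene. The median SD of the 31 genes was 0.25 in tumor Tom+/Pecam1+ cells and 0.14 in muscle Tom+ cells, and Ablim3 had the largest in the tumor at 0.68. Ramp2 was among the steadiest, with all 4 tumor arrays between 4.32 and 4.38. Repeat 4 was the lowest array for 18 of the 31 genes (repeat 4 was the lowest for 31.5% of all genes) and the highest for 4 (30.9% of all genes). Emcn, at 5.98 against 6.66 to 6.72 in the other repeats, and Adgrl4, at 5.53 against 6.13 to 6.23, were among the low ones. In the Tom-/Pecam1- cells of the same repeat the order was turned, and repeat 4 was the highest array for 19 genes (32.8% of all genes). The shared mean of each repeat ties these arrays together. Repeat 4 differs from the others in age, and age and repeat cannot be told apart.

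The Pecam1- tumor populations were compared for the same genes, although both were among the cells against which the genes were chosen as high. In Tom+/Pecam1- cells, 25 of the 31 genes (80.6%, against 85.4% of all genes tested) were above the 40th percentile in every array, and in Tom-/Pecam1- cells 26 (83.9%, against 86.7%) were. Pecam1 itself lay between 1.49 and 2.42 in these 8 arrays, and the part of remaining Pecam1+ cells in these levels was not tested. She and Rassf9 were above it in no array of either population, and Clic5 in none of the Tom+/Pecam1- arrays. Between Tom+/Pecam1- and Tom-/Pecam1- cells, 10 of the 31 genes were called by limma (32.3%, against 25.0% of all genes), 5 higher (13.2% of all genes) and 5 lower (11.8% of all genes). The interval lay inside 2-fold for 24 genes (77.4%, against 86.7% of all genes). Without She and Rassf9, which entered the test only through other groups, it did so for 22 of 29 (75.9%, against 86.3% of all genes above the 40th percentile in at least 1 of these arrays). The arrays did not overlap for 6 genes higher in the marked cells (14.9% of all genes) and 4 lower (13.1% of all genes).

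The 5 genes higher in marked cells were Ablim3, Dach1, Eng, Calcrl and Ramp2. Eng lay at 4.14, 3.92, 4.15 and 4.04 in Tom+/Pecam1- and at 3.21, 3.62, 3.54 and 3.47 in Tom-/Pecam1- cells, and rose by 0.60 (adjusted p = 0.001725). Both parts of the adrenomedullin receptor were again higher: Calcrl rose by 0.60 (adjusted p = 0.0007526) and Ramp2 by 0.49 (adjusted p = 0.001009). Dach1 rose by 1.05 (adjusted p = 0.001071) and Ablim3 by 1.23 (adjusted p = 0.009545). Dach1 in the Tom+/Pecam1- arrays lay at 0.75, 0.77, 1.34 and 1.08, and in the Tom-/Pecam1- arrays at 0.55, 0.12, -0.60 and -0.33, with no overlap.

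The 5 genes lower in marked Pecam1- cells were Lyl1, Hhex, Cd93, S1pr1 and Ecscr. Lyl1 lay at -0.16, 0.33, 0.02 and 0.74 in Tom+/Pecam1- and at 2.00, 1.47, 0.97 and 0.93 in Tom-/Pecam1- cells, and fell by 1.11 (adjusted p = 0.003315). Cd93 fell by 0.72 (adjusted p = 0.0004269), with all 4 marked arrays between 0.80 and 1.18 and all 4 unmarked arrays between 1.63 and 1.86. Hhex fell by 0.91 (adjusted p = 0.006928), S1pr1 by 0.71 (adjusted p = 0.01477) and Ecscr by 0.43 (adjusted p = 0.0173), and for Hhex and S1pr1 the ranges overlapped. S1pr1 lost its call without Tom-/Pecam1- repeat 1 (-0.57, adjusted p = 0.0627) and without Tom+/Pecam1- repeat 4 (-0.61, adjusted p = 0.05016). Ecscr lost its call without repeat 4 of all populations (-0.34, adjusted p = 0.1043), without Tom+/Pecam1- repeat 1 (-0.38, adjusted p = 0.06283) and without Tom-/Pecam1- repeat 1 or 4 (adjusted p = 0.06301 and 0.05416). In the same comparison all 8 leukocyte and all 8 macrophage markers were lower in the marked cells. The mean level of the leukocyte markers was 1.55 to 2.00 in Tom+/Pecam1- against 2.98 to 4.34 in Tom-/Pecam1- arrays, and all 10 myogenic markers were higher in the marked cells. The part of leukocytes in the lower Lyl1, Hhex, Cd93 and S1pr1 was not tested. Pecam1 itself differed by -0.26 between these populations and was not called (adjusted p = 0.3006).

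**Figure D5:**
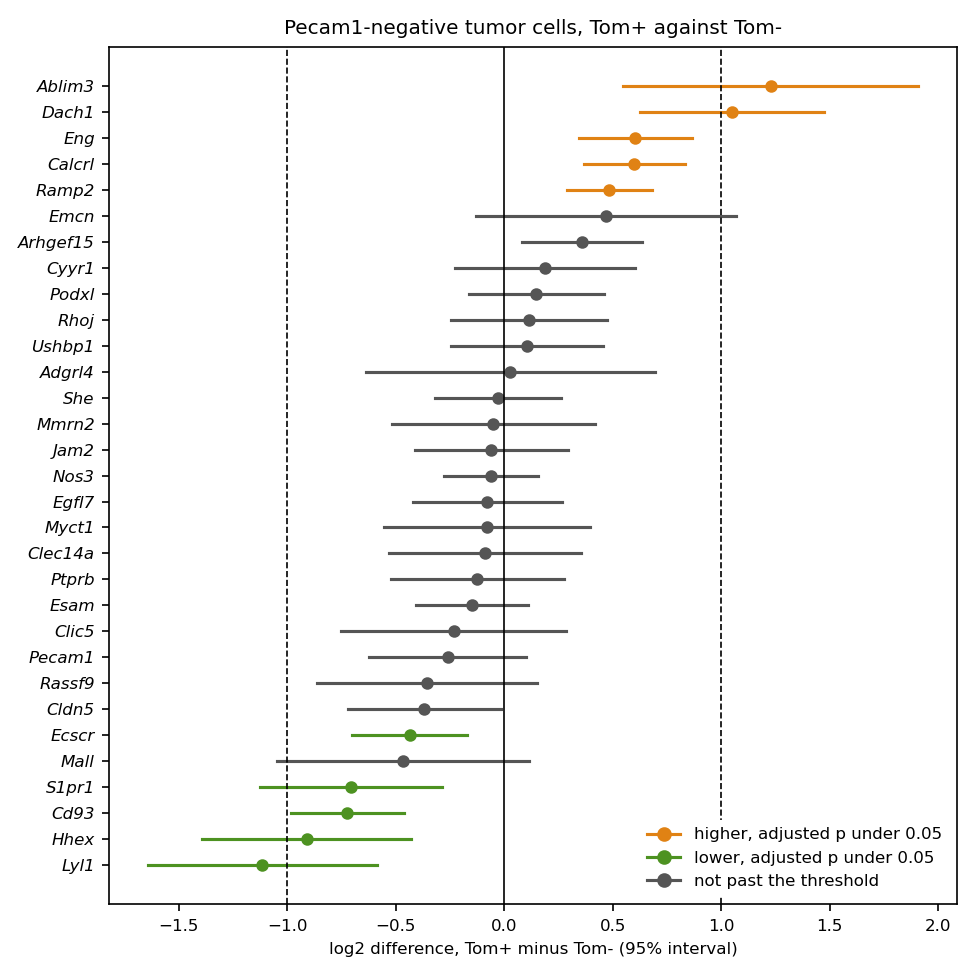
Difference between Tom+/Pecam1- and Tom-/Pecam1- tumor cells for each of the 31 genes (log2, Tom+ minus Tom-), with its 95% interval from limma, ordered by size. The dashed lines mark a 2-fold difference. Ablim3 and Dach1 are the highest and Lyl1 is the lowest.

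In unmarked cells the endothelial genes were lower in the tumor than in muscle. Between tumor Tom-/Pecam1- and muscle Tom- cells, 26 of the 31 genes were called (83.9%, against 48.7% of all genes), 23 lower (24.9% of all genes) and 3 higher (23.8% of all genes), and the median difference was -0.94 against -0.02 for all genes. The arrays did not overlap for 23 genes lower in the tumor (25.0% of all genes) and 3 higher (23.9%), and the interval lay inside 2-fold for 9 genes (75.8% of all genes). Both populations were among the cells against which the genes were chosen as high. The tumor cells had been depleted of Pecam1+ cells and the muscle cells had not, so choice, gate and tissue cannot be told apart here. Clic5 fell most, by 1.80 (3.49-fold, adjusted p = 3.505e-05), followed by Ptprb, by 1.74 (adjusted p = 3.419e-06), and Adgrl4, by 1.66 (adjusted p = 0.0007036). The 3 genes that went the other way were Eng, which rose by 0.89 (adjusted p = 4.417e-05), Ramp2, by 0.63 (adjusted p = 7.216e-05), and Lyl1, by 0.92 (adjusted p = 0.009537). Without muscle repeats 1 and 2, 18 of the 31 genes were called, and Adgrl4 was not (-1.58, adjusted p = 0.05221). Lyl1 lost its call without muscle Tom- repeat 1 (0.74, adjusted p = 0.05685) and against muscle repeat 3 alone (0.70, adjusted p = 0.2262). Eng lay at 3.21, 3.62, 3.54 and 3.47 in the tumor cells and at 2.79, 2.25 and 2.67 in the muscle cells. Leukocyte and macrophage markers were higher in these tumor cells in all 8 genes of each list, and their part in the level of Lyl1 and Eng was not tested. Salivary gland markers, raised in muscle Tom- repeats 1 and 2, were lower in the tumor cells in 5 of 8 genes and higher in 0. Their part in these differences was not tested either. Ramp2 was thus higher in the tumor than in muscle in the endothelial and in the unmarked population, by 0.78 and 0.63. Calcrl, the other part of the adrenomedullin receptor, was lower in the unmarked tumor cells by 0.45 (limma adjusted p = 0.004646), with no overlap. On deposited values its difference was -0.12 and was not called (adjusted p = 0.4064).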

How the data were processed

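RNA of 18 sorted populations was amplified and hybridised to 1-colour arrays. The authors deposited log2 intensities, processed with RMA and Partek per the submitters' processing notes, whose versions are not given in the sources used here. The table holds 41345 probe sets: 23521 with 1 gene symbol, 1814 with several and 16010 with none, and 23328 of the first kind matched RefSeq. For each gene the probe set with the highest mean was kept, each array's median was subtracted, and genes with at least 3 arrays above the 40th percentile of their array were tested. limma 3.58.1 (R 4.3.3) fitted 1 mean per group, with residual degrees of freedom of 13 and a prior of 3.9, two-sided tests and Benjamini-Hochberg adjustment over 16011 genes at 0.05. The labels call the repeats biological, and their number limits the precision.

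Values in every array were given for the genes called between tumor Tom+/Pecam1+ and muscle Tom+ cells, except Ecscr, She and Jam2. They were also given for the 6 genes with the narrowest interval about 0 and for Pecam1. Array values of S1pr1 were added after they were seen. From each of 7 gene lists up to 3 genes with the smallest adjusted p in a comparison were named, and 11 marker lists were counted. Members and lists were chosen with earlier results of these data known. Alternatives covered scaling, filters, probe set choice, variance models, thresholds, blocks and left-out arrays. Same-numbered muscle arrays deviated together (correlation of residuals 0.27 to 0.31). The scripts were tested on simulated data.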

Additional observations from a re-analysis of the deposited data

Results flagged for a closer look

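By Dixon's test, 9 of 93 combinations of a gene and a tumor group of 4 arrays had 1 array far from the others. The nominal rate of the test is about 1 in 20, but the combinations share arrays and repeat means and are not independent. Of these 9, 7 were repeat 4 (day 38) of the tumor Tom+/Pecam1+ cells, which is 22.6% of the 31 genes, against 3.05% of all genes. That array was low for Pecam1 (6.14, against 6.53 to 6.57 in the other repeats), Emcn (5.98, against 6.66 to 6.72), Myct1 (4.61, against 5.10 to 5.17), Adgrl4 (5.53, against 6.13 to 6.23) and Cyyr1 (5.40, against 5.90 to 5.98). It was high for S1pr1 (5.95, against 4.99 to 5.15) and Ablim3 (4.45, against 3.04 to 3.23). Leukocyte markers averaged 1.38 in this array against 0.06 to 0.25 in the other repeats, and their part in these values was not tested. The other flags were Nos3 in tumor Tom+/Pecam1+ repeat 1 (3.74, against 3.47 to 3.51) and Cldn5 in tumor Tom-/Pecam1- repeat 3 (-0.52, against -0.31 to -0.27).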

How the results depend on the processing

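In the comparison of tumor Tom+/Pecam1+ with muscle Tom+ cells, 6 of the 12 calls (Ramp2, Calcrl, Ushbp1, Clic5, Dach1 and Cd93) held under all 19 alternatives, and 10 genes that were not called gained a call under at least 1. The number of genes called over the array, 5482, became 8444 on deposited values, 3309 at an adjusted p of 0.01, 2769 without muscle repeats 1 and 2 and 3553 with centring on other blood endothelial genes. The 12 endothelial genes called became 7 without muscle repeats 1 and 2. Leaving out 1 array gave 8 to 11 of the endothelial genes called, 18 to 20 within 2-fold and 4430 to 5150 genes in all. Between the Pecam1- tumor populations it gave 8 to 11, and between unmarked cells 25 to 27. With the replicate block, 9, 10 and 26 were called in the 3 comparisons, with 19 within 2-fold and 4182 genes in all in the first. The block fits 1 shift per repeat number, shared by muscle and tumor arrays. Same-numbered muscle and tumor arrays did not deviate together (correlations -0.115 to 0.074), so this shared shift has no basis across the 2 tissues. The calls of Ecscr, She and Jam2 lost under the block are therefore not the outcome of a paired test. The tumor correlations (-0.72 to -0.17) are fixed by the shared repeat means.

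Signs turned for genes that were not called. On deposited values the differences became 0.21 for Cldn5, 0.31 for Mmrn2, 0.17 for Nos3, 0.21 for S1pr1, 0.11 for Myct1, 0.042 for Arhgef15, 0.13 for Adgrl4 and 0.26 for Rhoj. Quantile normalization gave 0.0775 for Mmrn2, and the mean of all probe sets gave -0.27 for Cyyr1, whose other probe set is dim. Without tumor repeat 4, Mmrn2 was at 0.11, Rhoj at 0.044 and Hhex at -0.039, and without muscle repeats 1 and 2 Hhex was at -0.35. Leaving out 1 array moved Cldn5 between -0.31 and 0.0515, Mmrn2 between -0.16 and 0.11, Rhoj between -0.23 and 0.044 and Hhex between -0.089 and 0.33. Beyond the removed arrays and the shifted scale, the cause was not tested.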

Other observations

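Partner genes of the endothelial programme were also compared between the Pecam1- tumor populations, where 13.2% of all genes were higher in marked cells and 11.8% lower. Of 15 partners of junctions and Rap1, 7 were higher in Tom+/Pecam1- than in Tom-/Pecam1- cells and 1 was lower, with a median of 0.42 against 0.03 for all genes. Cdh5, or VE-cadherin, rose by 1.08 (limma adjusted p = 0.002148) and Ctnnd1, or p120 catenin, by 0.64 (adjusted p = 0.0005222), while Rap1b fell by 0.62 (adjusted p = 0.0001496). Of 23 other blood endothelial genes, 3 rose and 5 fell (25.0% of all genes were called). Sox18, a SoxF factor, rose by 1.63 (adjusted p = 6.088e-06), while the ETS factor Fli1 fell by 1.46 (adjusted p = 6.088e-06) and Lmo2, a LIM-only factor of blood and vessel cells, by 0.73 (adjusted p = 0.0007783). All 8 leukocyte markers were lower in the same comparison, and their part in these values was not tested.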
